A study of Homo sapiens with 4 samples.

Results

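The 10 genes described here encode the G1 cyclins, the kinases they activate and 2 of the inhibitors that hold those kinases back: CCND1, CCND2 and CCND3 (cyclins D1, D2 and D3), CCNE1 and CCNE2 (cyclins E1 and E2), CDK2, CDK4 and CDK6 (cyclin-dependent kinases), and CDKN1B and CDKN1C (the inhibitors p27 and p57). They were taken as a list by name, with no threshold on their values, out of 63856 genes in the count table. All 10 were found there by Ensembl identifier, and 9 passed the filter on low counts and were tested together with 15830 genes in all. RNA-seq libraries of MCF10A cells, a non-tumorigenic human breast epithelial line grown with horse serum, insulin, hydrocortisone and EGF, were compared between wild type (WT) cells and HSF1-pLVX cells, which overexpress the heat shock transcription factor HSF1 after lentiviral transduction and puromycin selection. There were 2 biological replicates of each variant, of total RNA depleted of ribosomal RNA. Cells transduced with the empty vector were not analysed here, so effects of HSF1 cannot be told apart from those of the vector, of puromycin or of the time the cells spent apart in culture.

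In G1 phase, growth factors such as EGF raise the D cyclins, which bind CDK4 or CDK6 and begin to phosphorylate the retinoblastoma protein RB1. This releases E2F transcription factors, which induce the E cyclins. Cyclin E with CDK2 completes the phosphorylation and takes the cell into S phase. Inhibitors of the CIP/KIP family (CDKN1A, CDKN1B and CDKN1C) bind cyclin-CDK complexes, whereas those of the INK4 family (CDKN2A to CDKN2D) bind CDK4 and CDK6 alone. In breast epithelium CCND1 is the best known D cyclin and is required for lobular development in pregnancy. MCF10A cells are known to have lost the chromosome 9 locus of CDKN2A and CDKN2B.

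The libraries held between 18688109 and 24184285 counts. HSF1 itself, the check of the labels, was at 200.4 and 189.2 CPM (counts per 1000000 counts of the library, after TMM normalization) in WT replicates 1 and 2 and at 982.4 and 998.6 in HSF1-pLVX replicates 1 and 2, which gave a log2 fold change (standard error, SE) of 2.35 (0.10). All 8 mammary epithelial markers examined were detected, but 6 of them fell in HSF1-pLVX cells, among them the basal keratins KRT14 (log2 fold change -3.55) and KRT17 (-2.56) and the luminal keratin KRT8 (-3.24), while TP63 and KRT5, also basal, rose by 3.48 and 1.12, so basal markers moved both ways. Over all tested genes, 33.2% were called lower and 32.7% higher. Abundant keratins weigh most in a sum of the 8 markers. Mean CPM in WT and HSF1-pLVX cells was 7194 and 1220 for KRT17, 3165 and 335.4 for KRT8, and 2113 and 4592 for KRT5. Summed over the 8 markers, the level was 15704 and 15694 CPM in WT libraries and 6962 and 7408 in HSF1-pLVX libraries. Summed over 9 markers of blood, endothelial, fibroblast and liver cells, it lay between 8.15 and 11.8 CPM in the 4 libraries. Of these 9, PTPRC, the leukocyte marker, had 0 counts in every library, but it has 2 rows in the deposited normalized table and reads that fit 2 annotated copies may be missing. COL1A1 alone passed the filter and was not called. The libraries thus carried epithelial transcripts, with their levels shifted between the groups.

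Among the G1 genes, CCND1 fell 8.59-fold in HSF1-pLVX cells, CDK4 rose 2.88-fold and CCNE2 rose 2.02-fold. The other 6 tested members, CCND2, CCND3, CCNE1, CDK2, CDK6 and CDKN1B, did not pass the test, and CDKN1C was too low to be tested. Thus 3 of 9 tested members were called at an adjusted p of 0.05, 1 lower and 2 higher, by the edgeR quasi-likelihood test, adjusted over all genes tested by Benjamini-Hochberg. The same test called 65.9% of all tested genes, 32.7% higher and 33.2% lower. All 3 calls were also at least 2-fold, where 14.9% of all tested genes were called higher and 14% lower past that size (28.9% together). By the study's rule on the deposited normalized values, a ratio over 2 or under 0.5 in both replicates, CDK4 was higher, against 5% of rows, and CCND1 lower, against 6.42% of rows. The median log2 fold change of the 9 tested members was 0.10, against 0.02 over all genes tested. The values of the groups did not overlap in 6 of the 9 members, against 83.1% of all tested genes. With 2 libraries against 2, an exact permutation test of a single gene cannot give a p below 0.33, so the test rests on a spread shared across genes.

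**Figure D1:**
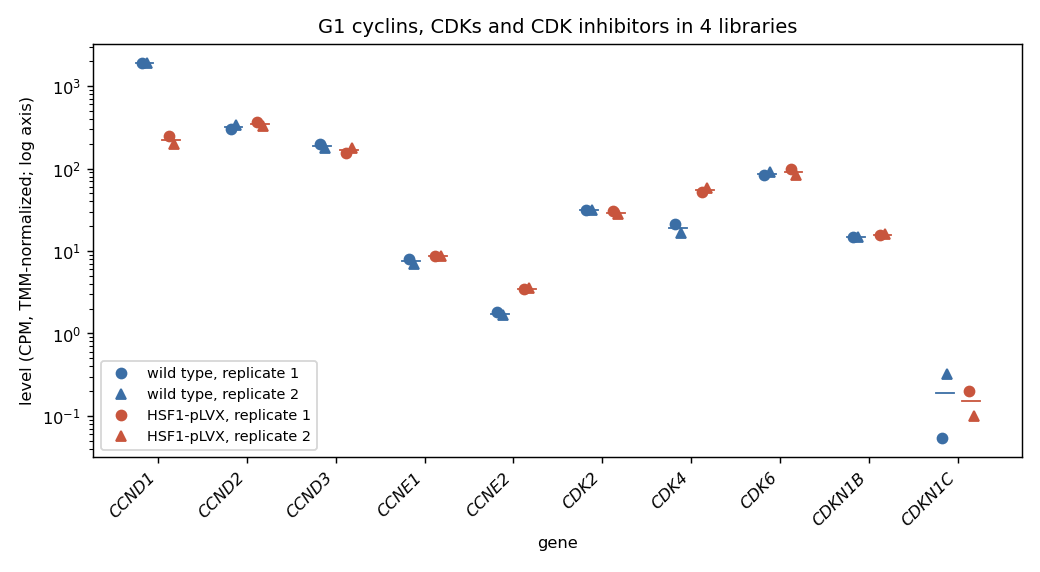
Level of each of the 10 genes in the 4 libraries, in TMM-normalized CPM on a log axis; circles are replicate 1, triangles replicate 2, blue is WT, red is HSF1-pLVX, and short lines are group means (n = 2). CCND1 has a mean of 1912 CPM in WT libraries against 222.6 in HSF1-pLVX libraries, CDK4 and CCNE2 are higher in both HSF1-pLVX libraries, and CDKN1C is below 1 CPM in all 4.

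CCND1 (ENSG00000110092.3, chromosome 11 of hg38, 69641087 to 69654474, plus strand), which couples growth factor signals to CDK4 and CDK6, showed the largest difference of the 9 tested members. It held 35664 and 35767 counts in the WT libraries and 6172 and 3959 in the HSF1-pLVX libraries. In CPM this was 1900 and 1925 in WT replicates 1 and 2 and 245.8 and 199.3 in HSF1-pLVX replicates 1 and 2. Both HSF1-pLVX libraries thus lay far below both WT libraries. The log2 fold change was -3.10 (SE 0.12, adjusted p = 6.56e-11), or 8.59-fold lower with a 95% interval of 7.15 to 10.3. By mean CPM, CCND1 was the gene of rank 46 among all genes in WT cells and of rank 659 in HSF1-pLVX cells. Of all tested genes, 346 had a lower log2 fold change than CCND1. In bulk RNA, fewer cells carrying a transcript and less of it per cell cannot be told apart. The fall in CCND1 stood beside the fall in 6 of 8 epithelial markers given above, and the part of those markers in it was not tested.

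The nearest tested gene, LTO1, which lies on the opposite strand and overlaps the end of CCND1, was the only tested gene within 200 kb. It was at 30.6 ± 5.14 CPM in WT and 26.1 ± 2.16 in HSF1-pLVX cells (SD, n = 2) and was not called (log2 fold change -0.23, SE 0.12, adjusted p = 0.097). Of the exon bases of CCND1, 10.3% are shared with LTO1, and the strand setting of the counting is not given in the sources used here. CST6 and PDLIM2 were among the genes whose log2 CPM over the 4 libraries, centred on the mean of each gene, lay closest to that of CCND1, out of 9671 genes of at least 8 CPM. Their Euclidean distances were 0.072 and 0.079 on the log2 scale, and with 4 libraries in 2 groups the measure compares mainly the size of the fall.

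CCND2 (ENSG00000118971.7, chromosome 12, 4273772 to 4305350, plus strand), the cyclin D of many proliferating blood and germ cells, was at 306.6 and 337.7 CPM in WT and 365.5 and 333.1 in HSF1-pLVX replicates 1 and 2. The groups overlapped. Its log2 fold change was 0.12 (SE 0.096, 95% interval -0.09 to 0.32, adjusted p = 0.30).

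CCND3 (ENSG00000112576.12, chromosome 6, 41934933 to 42050357, minus strand), the cyclin D of lymphocyte development and muscle differentiation, was at 201.1 and 177.3 CPM in WT and 155.9 and 178.6 in HSF1-pLVX replicates 1 and 2. Here too the groups overlapped, and the log2 fold change was -0.18 (SE 0.099, 95% interval -0.39 to 0.03, adjusted p = 0.13). CCND3 was thus not called. Without WT replicate 2 its log2 fold change was -0.28 and without WT replicate 1 it was -0.071, so its size depended on the libraries kept. Neither interval for CCND2 and CCND3 reached the size of the fall in CCND1.

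To compare the 3 cyclin D genes with each other, levels were divided by the length of their counted exons (CPM per kb). In WT cells CCND1 was at 396.0 ± 3.68, CCND2 at 42.8 and 47.2 in replicates 1 and 2 and CCND3 at 32.6 ± 2.90 CPM per kb (SD, n = 2), so CCND1 stood far above the other members. In HSF1-pLVX cells CCND2 was at 48.8 ± 3.19, CCND1 at 46.1 ± 6.82 and CCND3 at 28.8 ± 2.77, and the difference between CCND2 and CCND1 was smaller than the spread between replicates. The 3 genes together went from 473.6 ± 3.86 to 123.7 ± 7.25 CPM per kb, a 3.83-fold lower sum. The share of CCND1 in this sum was 83.5% and 83.7% in the WT libraries and 39.5% and 34.8% in the HSF1-pLVX libraries. The share of CCND2 was 9.10% and 9.91% in WT and 39.6% and 39.3% in HSF1-pLVX libraries, although the CCND2 level itself was not called. Without division by length the share of CCND1 was 78.9% in WT and 30.04% in HSF1-pLVX cells.

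**Figure D2:**
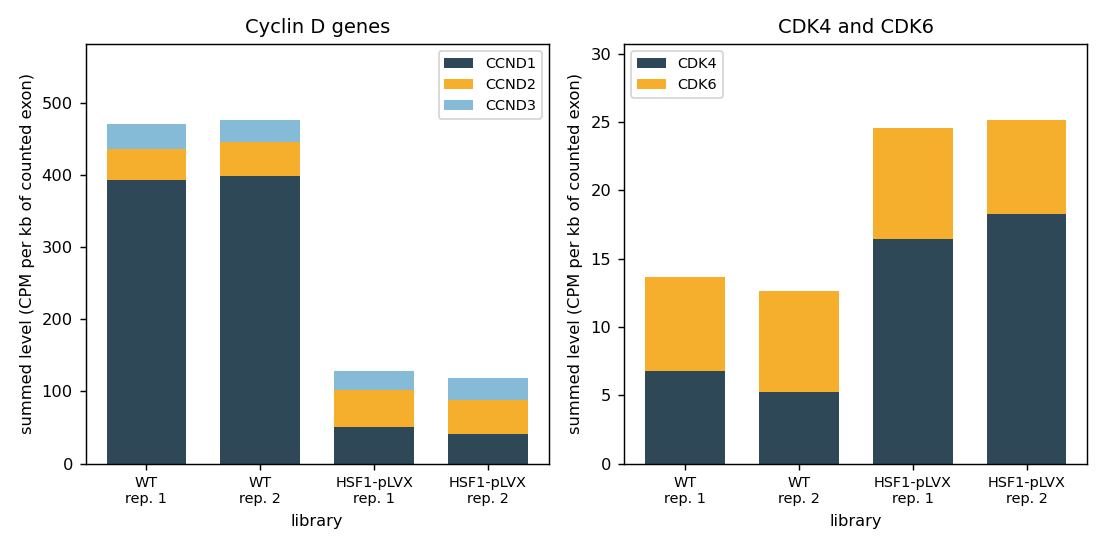
Stacked levels, in CPM per kb of counted exon, of the 3 cyclin D genes (left) and of CDK4 and CDK6 (right) in each of the 4 libraries. CCND1 makes up 83.6% of the cyclin D sum in WT against 37.2% in HSF1-pLVX libraries, and CDK4 makes up 45.6% against 69.7% of the kinase sum (means, n = 2).

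CDK4 (ENSG00000135446.16, chromosome 12, 57747727 to 57756013, minus strand), a partner kinase of the D cyclins, moved opposite to CCND1. It was at 21.4 and 16.7 CPM in WT replicates 1 and 2 and at 52.1 and 57.8 in HSF1-pLVX replicates 1 and 2, from 401, 310, 1307 and 1148 counts. Every HSF1-pLVX value was above every WT value. The log2 fold change was 1.53 (SE 0.11, adjusted p = 3.31e-08), or 2.88-fold higher with a 95% interval of 2.43 to 3.42, and 1163 tested genes had a higher one. Of its exon bases, 43.2% are shared with TSPAN31, a tetraspanin gene on the opposite strand, so reads of these stretches could be lost or misassigned. TSPAN31 fell from 39.1 ± 1.27 to 19.4 ± 0.424 CPM (SD, n = 2, log2 fold change -1.01, SE 0.094). The part of this overlap in the change of CDK4 was not tested. By the same measure as above, the genes closest to CDK4 in pattern were RFX2, SLC7A5 and TAF4B, at distances of 0.076, 0.080 and 0.087.

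CDK6 (ENSG00000105810.9, chromosome 7, 92604921 to 92836594, minus strand), the other partner kinase of the D cyclins, was at 84.7 and 89.9 CPM in WT and at 99.4 and 84.9 in HSF1-pLVX replicates 1 and 2. The groups overlapped, and the log2 fold change was 0.08 (SE 0.094, 95% interval -0.12 to 0.28, adjusted p = 0.47). Its sign depended on 1 library, since it was -0.036 without HSF1-pLVX replicate 1. Per kb, CDK4 was at 6.74 and 5.27 in WT replicates 1 and 2 and CDK6 at 6.91 and 7.33. Both CDK4 values lay below both CDK6 values, by a difference in means close to the SD of CDK4 (1.04), and the CDK4 level per kb counts exon bases shared with TSPAN31, whose reads could be lost. In HSF1-pLVX cells CDK4 was at 17.3 ± 1.28 and CDK6 at 7.51 ± 0.837 CPM per kb (SD, n = 2). CDK4 thus went from 49.4% and 41.8% of the sum of both in WT libraries to 67.0% and 72.5% in HSF1-pLVX libraries.

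Promoter sequences of CDK4 and CDK6, partner kinases of the same cyclins, are shown side by side. RefSeq promoter entries (GRCh38.p14) matched 5 of the 10 members, namely CCND3, CCNE1, CDK4, CDK6 and CDKN1B, with 8 starts in all. The 250 bases before each start were searched on both strands for the heat shock element core GAANNTTC, to which heat shock factors bind as repeats of GAA, for the E-box CACGTG, bound by MYC and related factors, for the AP-1 site TGANTCA and for an E2F-like site TTTNNCGC. The stretch before CDK4 (chr12:57752311-57752560, minus strand) held 3 E-boxes, in capitals, whose first bases lie at positions -216, -196 and -101 from the start, and no match of the other motifs. The stretch before the outer CDK6 start (chr7:92836574-92836823, minus strand) held no match of the 4 motifs.
CDK4: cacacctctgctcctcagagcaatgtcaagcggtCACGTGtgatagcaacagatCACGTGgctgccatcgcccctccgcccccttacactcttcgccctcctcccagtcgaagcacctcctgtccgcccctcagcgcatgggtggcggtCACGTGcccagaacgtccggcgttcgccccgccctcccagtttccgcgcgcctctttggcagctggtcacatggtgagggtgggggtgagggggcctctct
CDK6: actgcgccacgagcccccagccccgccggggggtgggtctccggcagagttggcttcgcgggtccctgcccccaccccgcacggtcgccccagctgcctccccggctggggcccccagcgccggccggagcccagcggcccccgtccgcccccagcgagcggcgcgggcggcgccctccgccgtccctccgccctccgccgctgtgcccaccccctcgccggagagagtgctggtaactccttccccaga
An E-box was found in 6.3% of the 35116 promoter entries, and 3 or more, the number found before CDK4, in 28 entries, or 0.08%. This cut of 3 was taken from the CDK4 stretch itself, so the share is not a test of that stretch. The heat shock element core was found in 5.8% of all entries, the AP-1 site in 6.6% and the E2F-like site in 5.9%. Among the members, the heat shock element core was found once, before an inner start of CCND3. These matches describe letters in the windows, and no binding was measured. Their part in the values of CDK4 and CDK6 was not tested.

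CCNE2 (ENSG00000175305.17, chromosome 8, 94879770 to 94896678, minus strand), an E2F-induced partner of CDK2, rose from 1.81 and 1.67 CPM in WT replicates 1 and 2 to 3.51 and 3.52 in HSF1-pLVX replicates 1 and 2. The groups did not overlap, but the values rest on 34, 31, 88 and 70 counts. The log2 fold change was 1.01 (SE 0.24, adjusted p = 0.0022), or 2.02-fold higher with a 95% interval of 1.40 to 2.90. It did not pass the study's ratio rule, with ratios of 1.62 and 1.76 in replicates 1 and 2. Of its exon bases, 37.1% are shared with genes on the opposite strand, chiefly INTS8, which was not called (log2 fold change -0.18, SE 0.11, adjusted p = 0.17).

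CCNE1 (ENSG00000105173.13, chromosome 19, 29811898 to 29824308, plus strand), the other cyclin E, was at 7.99 and 7.05 CPM in WT and 8.60 and 8.66 in HSF1-pLVX replicates 1 and 2. Although the HSF1-pLVX values lay above both WT values, the difference did not pass the test (log2 fold change 0.20, SE 0.15, 95% interval -0.12 to 0.51, adjusted p = 0.25). Per kb, CCNE1 remained the more abundant of the pair, at 2.95 ± 0.261 against 0.396 ± 0.0230 for CCNE2 in WT cells and 3.38 ± 0.0150 against 0.799 ± 0.00295 in HSF1-pLVX cells (SD, n = 2). CCNE2 made up 11.8% of the cyclin E sum in WT and 19.1% in HSF1-pLVX cells.

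CDK2 (ENSG00000123374.10, chromosome 12, 55966769 to 55972784, plus strand), the kinase of cyclin E, was at 31.3 and 31.7 CPM in WT and 30.4 and 28.1 in HSF1-pLVX replicates 1 and 2. Its log2 fold change of -0.11 did not pass the test (SE 0.093, 95% interval -0.30 to 0.09, adjusted p = 0.34). Per kb, CDK2 was at 8.09 ± 0.0781 in WT and 7.51 ± 0.418 in HSF1-pLVX cells. In WT cells CDK2 lay above CDK6 in both libraries as counted. Of the exon bases of CDK2, 16.8% are shared with genes on the opposite strand, so its level per kb carries the same limit as that of CDK4. The place of CDK4 is uncertain because of its larger share of such bases. In HSF1-pLVX cells CDK4 stood above both, and CDK2 and CDK6 differed by less than the replicate spread.

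**Figure D3:**
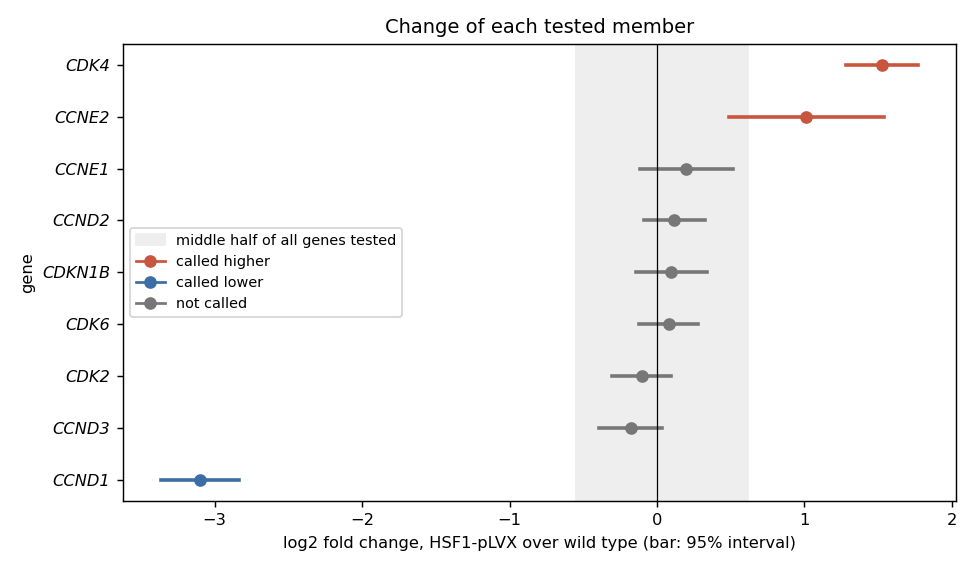
Log2 fold change of each of the 9 tested members, HSF1-pLVX over wild type, with 95% intervals from edgeR's quasi-likelihood fit; the grey band spans the quartiles of all 15830 tested genes, from -0.55 to 0.61. CCND1 lies at -3.10, CDK4 at 1.53 and CCNE2 at 1.01, and the other 6 intervals include 0.

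CDKN1B (ENSG00000111276.10, chromosome 12, 12715058 to 12722371, plus strand), the inhibitor p27, whose level is set largely by protein degradation, was at 14.8 and 14.9 CPM in WT and 15.7 and 16.0 in HSF1-pLVX replicates 1 and 2. The groups did not overlap, but the log2 fold change of 0.10 did not pass the test (SE 0.11, adjusted p = 0.46). Its 95% interval, from 0.906-fold to 1.26-fold, bounds the difference that could be missed.

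CDKN1C (ENSG00000129757.12, chromosome 11, 2883213 to 2885881, minus strand), the imprinted inhibitor p57, held 1 and 6 counts in the WT libraries and 5 and 2 in the HSF1-pLVX libraries. It was therefore not tested, and no difference was detectable at this depth. The deposited normalized table has 2 rows named CDKN1C, the second at its lowest value in all 4 libraries. Reads that fit 2 annotated copies may be missing from the counts, which was not tested. Of the 4 tested genes within 200 kb, SLC22A18, KCNQ1OT1 and NAP1L4 were called lower, as were 33.2% of all tested genes. Their log2 fold changes were -0.84 (SE 0.19), -0.38 (SE 0.15) and -0.33 (SE 0.14). Their adjusted p-values in the edgeR test were 0.0017, 0.039 and 0.049, so KCNQ1OT1 and NAP1L4 lay close to the limit of 0.05. CARS1 was not called (0.25, adjusted p = 0.13 in the same test).

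Of the other CDK inhibitors, CDKN1A (p21, a CIP/KIP inhibitor and p53 target) fell from 1182 and 1160 CPM in WT replicates to 473.0 and 434.3 in HSF1-pLVX replicates (log2 fold change -1.37, SE 0.10, adjusted p = 2.78e-08). Per kb it was the dominant CIP/KIP transcript, with 98.6% of the sum of CDKN1A, CDKN1B and CDKN1C in WT and 96.3% in HSF1-pLVX cells, and this sum was 2.52-fold lower in HSF1-pLVX cells. Of the INK4 inhibitors, CDKN2C (p18) rose, at 1.01 and 0.807 CPM in WT and 3.11 and 2.47 in HSF1-pLVX replicates (log2 fold change 1.62, SE 0.30, adjusted p = 0.00026). CDKN2D (p19) fell, at 4.79 and 6.51 CPM in WT and 2.43 and 3.47 in HSF1-pLVX replicates (log2 fold change -0.95, SE 0.24, adjusted p = 0.0026). CDKN2A and CDKN2B had 0 counts in all 4 libraries, where 3 counts, the limit that a count of 0 allows, correspond to between 0.12 and 0.16 CPM. This limit covers counting error only.

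The genes that act on cyclins and CDKs from outside were mixed in direction. Of 12 CDK activators and brakes, 5 rose, 2 fell and 5 were not called, with a median log2 fold change of 0.04, against 32.7% of all tested genes called higher and 33.2% lower. CDC25B and CDC25C, phosphatases that activate CDKs at entry into mitosis, rose by 2.66 and 2.06 on the log2 scale, and PKMYT1, a kinase that inhibits CDK1, rose by 1.73. CABLES1 and CABLES2, which link CDKs to other kinases, fell by 1.25 and 0.92. CDC37, the HSP90 co-chaperone that folds CDK4, was not called, at 242.1 and 245.4 CPM in WT and 267.7 and 272.3 in HSF1-pLVX replicates. CDK7, not called, has 2 rows in the normalized table and may have lost reads in the same way as CDKN1C.

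Of 19 genes of ubiquitin ligases and deubiquitinases that set the levels of cyclins and CDK inhibitors, 9 rose, 5 fell and 5 were not called. Over all tested genes, 65.9% were called, 32.7% higher and 33.2% lower. DTL, a substrate receptor that targets p21, rose by 2.41 on the log2 scale, FBXO4, reported to target cyclin D1, by 1.78, and CKS1B, needed for the degradation of p27, by 1.65. USP2, a deubiquitinase of cyclin D1, had a log2 fold change of -2.01, SKP1 one of -0.66 and RNF123 (KPC1), which targets p27 in G1, one of -0.49. Messenger RNA levels do not show the activity of these enzymes.

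Of 12 tested RB and E2F genes, 7 rose, 1 fell and 4 were not called, against 32.7% of all tested genes called higher and 33.2% lower. Their median log2 fold change was 0.71, against 0.02 over all genes tested. E2F1, an activator of S phase genes, rose by 1.80 on the log2 scale, the RB1 relative RBL1 by 1.56 and E2F8 by 1.20, and E2F3 had a log2 fold change of -0.39. RB1 was not called (log2 fold change -0.11). All 6 tested cyclins and kinases of S and M phase rose, against 32.7% of all tested genes called higher. The largest rises were in CDK1 (2.31), CCNA1 (2.30, from a WT mean of 0.374 CPM) and CCNA2 (1.84).

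All 20 transcripts of a G1/S list and all 20 of a G2/M list rose in HSF1-pLVX cells, with median log2 fold changes of 1.67 and 1.94, against 32.7% of all tested genes called higher. Both lists were written with earlier results of these data known, so these counts describe the lists and are not an independent test. Named by size, they were CDT1 (3.34), CDC45 (2.62) and MCM7 (2.22) of the first list, and TOP2A (2.60), CDK1 and BUB1B (2.31 each) of the second. The G2/M list shares genes with the list of S and M phase cyclins and kinases, CDK1 among them, so their counts are not separate. The fall of CCND1 and the values of the other members thus stood beside higher levels of transcripts of later phases. The share of cells in each phase was not measured in these libraries, and its part in the members' values was not tested. From its RNA-seq comparison with wild type cells, the study reported DNA replication among the pathways enriched in the genes up-regulated with HSF1 overexpression. By crystal violet staining, the study reported no effect of HSF1 overexpression on the proliferation of MCF10A cells.

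**Figure D4:**
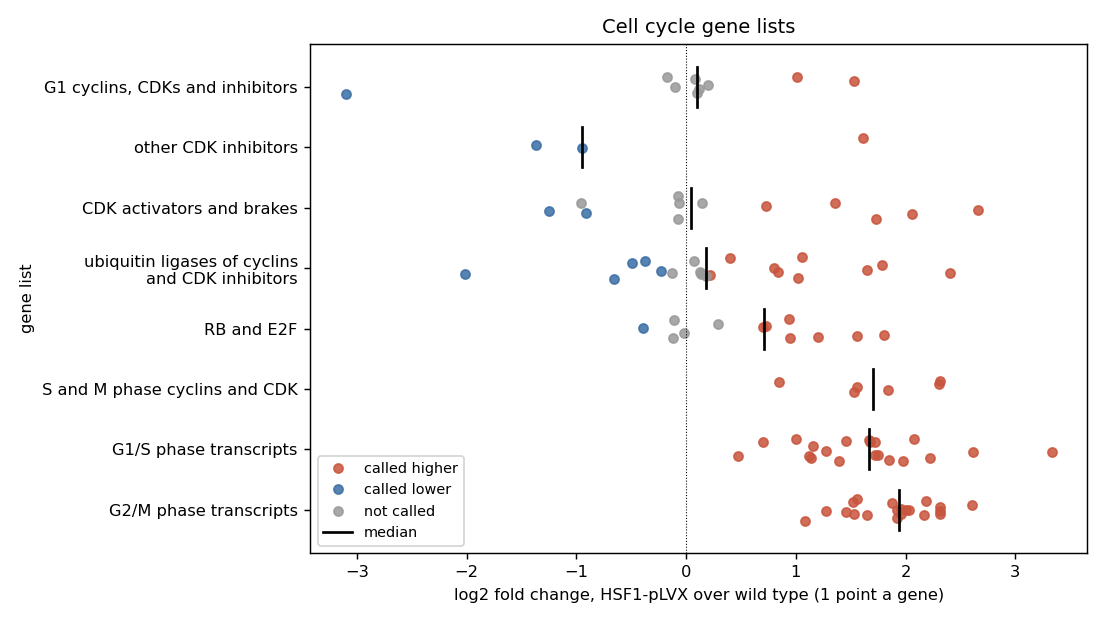
Log2 fold change, HSF1-pLVX over wild type, of each tested gene (1 point a gene, scattered vertically for display) in the G1 list and the other cell cycle lists, coloured by call, with the median as a black line. The lists of S and M phase cyclins, G1/S and G2/M transcripts lie wholly to the right of 0, with medians from 1.67 to 1.94, whereas the G1 list has a median of 0.10 and CCND1 alone below -3. Genes shared by the S and M phase list and the G2/M list are drawn in both. The lists were written with earlier results of these data known.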

How the data were processed

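RNA-seq was analysed in 2 libraries of WT and 2 of HSF1-pLVX MCF10A cells, grouped by their titles. The authors deposited raw counts per gene from paired-end reads of 76 bp aligned to hg38 with HISAT2 2.0.5, processed with SAMtools 1.13 and counted with featureCounts 1.6.5, versions that the methods and the submitters' processing notes give. The annotation is GENCODE 26 by its name. The strand, overlap and multi-mapping settings are not given in the sources used here. The authors also deposited log2-like normalized values made with DESeq2 1.32.0 for 22321 rows, used only as an alternative.

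The test was made in R 4.3.3 with edgeR 4.0.16 on the raw counts (filterByExpr, TMM, glmQLFit and glmQLFTest, HSF1-pLVX against WT, no covariate), with Benjamini-Hochberg adjustment over 15830 genes. Standard errors were the log2 fold change divided by the square root of F, and intervals are at 95%. The script was tested on simulated data in which far fewer genes changed than were called here, so its false calls at this scale were not tested. Symbols were taken from a table of Ensembl identifiers, which named all 120 genes of the lists. CPM (counts per 1000000) uses TMM-scaled library sizes, and levels per kb use the summed exon length in the count table. Replicates of a group differed by more than sampling noise (chi-square per degree of freedom 6.62 for WT and 8.04 for HSF1-pLVX). Between 18688109 and 24184285 counts per library set the precision.

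All 10 members were named. From each other list the text names up to 3 called genes with the largest rise and up to 3 with the largest fall, with a mean of at least 1 CPM, and every gene of the other CDK inhibitors. CDC37, CDK7, RB1, TSPAN31 and INTS8 were named in addition, after their values were seen. The members and lists were chosen with earlier results of these data known. Alternatives covered normalization, filter, limma-voom 3.58.1, DESeq2 1.42.0, the replicate number as a block, each library left out, the study's ratio rule and the deposited values.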

Additional observations from a re-analysis of the deposited data

How the results depend on the processing

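CCND1, CDK4 and CCNE2 kept their direction and their call under each normalization, filter, test and left-out library tried. In the tests with all 4 libraries their log2 fold changes lay between -3.13 and -3.04, between 1.499 and 1.59 and between 0.99 and 1.07, with highest adjusted p-values of 2.67e-08, 8.63e-07 and 0.049. The numbers of members called higher and lower, 2 and 1, changed in 3 places. On the deposited normalized values, the study's rule was passed upwards by 1 member, CDK4, against 5% of rows, and downwards by 1, CCND1, against 6.42% of rows. With 1 library left out, where the lone library of a group is assumed to vary like the other group, between 1 and 2 members were called lower, 2 without WT replicate 2, when CCND3 had -0.28 (range of CCND3 from -0.28 to -0.071). CDK6 then lay between -0.036 and 0.20, below 0 without HSF1-pLVX replicate 1. As differences of the deposited values, CCNE2 moved to 0.76 and CDKN1B to 0.066. Without division by length, the share of CCND1 among the cyclin D genes was 78.9% in WT and 30.04% in HSF1-pLVX cells.

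Neither the labels nor the methods say that a replicate number marks a shared culture. Deviations of same-numbered libraries correlated at -0.015 over all tested genes and at -0.114 over 9672 genes of at least 8 CPM. With the replicate number as a block, 2 members were called higher and 1 lower, as without it, and 5138 genes were higher and 5171 lower in all, against 5175 and 5253. Crossing the numbers, an alternative chosen after seeing the data, gave 2 members higher and 2 lower, and 5429 and 5487 genes. Counts for the other lists stayed within 1.5 times under the block and under DESeq2's Wald test. With library size as the only normalization, the median of all genes moved by 0.061 on the log2 scale. Depth limits CDKN1C, at 1 to 6 counts.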
